A study of Zea mays with 9 samples.

Results

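The genes described here are 6 genes of carotenoid and abscisic acid metabolism in maize endosperm, out of 46430 gene identifiers counted in each library. They were chosen by identifier, as Zm00001d036345 (y1), Zm00001d012394 (psy2), Zm00001d011210 (lcyE), Zm00001d048469 (crtRB1), Zm00001d048373 (ccd1) and Zm00001d033222 (vp14). All 6 passed the filter on low counts and were among the 23529 genes tested. Endosperm was dissected 19 days after pollination from self-pollinated, field-grown plants, and poly(A) RNA was sequenced. The 9 libraries comprised 3 of WT, 3 of thk1-iso15 and 3 of thk1-iso17. Every library was of the B73 inbred strain, and both mutant genotypes are given as -/-. The gene thk1 (thick aleurone1) encodes the NOT1 scaffold of the CCR4-NOT complex, which shortens the poly(A) tails of mRNA, and its mutants form extra layers of aleurone. Gene counts per library ranged from 21871601 in thk1-iso15 replicate 1 to 76651742 in thk1-iso17 replicate 1. The number of plants or kernels behind a replicate is not given in the sources used here, so p-values measure the spread between these samples, which may be technical. In RNA of whole endosperm, fewer cells of a type and less RNA per cell cannot be told apart. The tissue label was not checked against marker genes, and thk1 itself is not analysed here, because no other nuclear gene model could be paired with a gene name.

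Carotenoids are made in plastids from geranylgeranyl diphosphate. Phytoene synthase joins a pair of these molecules into phytoene, later steps turn phytoene into lycopene, and cyclases then send lycopene either towards alpha-carotene and lutein or towards beta-carotene and zeaxanthin. In yellow maize such as B73 the starchy endosperm and the aleurone store these pigments, and cleavage of epoxidised carotenoids provides the precursor of abscisic acid, the hormone that keeps the seed dormant.

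None of the 6 genes differed from WT in either mutant at an adjusted p under 0.05 in edgeR's quasi-likelihood test. In thk1-iso15 the count was 0 of 6, where 15.5% of all genes tested passed, and 2 of the 6 had an unadjusted p under 0.05. In thk1-iso17 it was 0 of 6 against 14.2% of all genes, again with 2 below 0.05 unadjusted. With both alleles averaged against WT it was 0 of 6 against 21.0%, with 2 below 0.05 unadjusted. The share of all genes below 0.05 unadjusted was not computed, and it is at least the share that passed. These unadjusted counts are therefore no result about the 6 genes, and in thk1-iso15 they include crtRB1, which passed the filter through mutant libraries alone. DESeq2 called 1 of the 6 in thk1-iso15, 0 in thk1-iso17 and 1 with both alleles, in each case ccd1, and voom called 0 in each. Over all genes DESeq2 called 5027, 4865 and 6346, and voom 2749, 3413 and 4420, where edgeR called 3642, 3352 and 4943. DESeq2 was fitted on 33773 genes, and edgeR and voom on 23529. The carotenoid-cleaving ccd1 had the lowest adjusted p of the 6 in thk1-iso15 and with both alleles, at 2.16-fold and 1.94-fold of the WT level, and y1 had the lowest in thk1-iso17. The 6 genes had a median log2 fold change of -0.19 in thk1-iso15, against 0.01 over all genes tested. In thk1-iso17 their median was 0.10, against 0.02. Comparisons of both mutants used the same 3 WT libraries.

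Entry into the pathway was described by y1 and psy2, which both encode phytoene synthase. The y1 gene is named for yellow kernels, and its loss leaves the endosperm white. It stood at 22.4, 22.2 and 18.2 CPM (read counts set to a common library total, here scaled with TMM factors) in WT replicates 1, 2 and 3. The thk1-iso15 libraries had 21.6, 21.97 and 21.2 CPM. The thk1-iso17 libraries had 15.8, 16.3 and 18.0 CPM. The thk1-iso15 values thus lay within the WT range, and all 3 thk1-iso17 values lay just under the lowest WT value. Means came to 20.9 ± 2.36 CPM for WT, 21.6 ± 0.396 for thk1-iso15 and 16.7 ± 1.16 for thk1-iso17 (± SD over n = 3 libraries). The thk1-iso15 log2 fold change was 0.04 (SE 0.14; adjusted p = 0.858 by edgeR), with a 95% interval from 0.837-fold to 1.27-fold of WT. The thk1-iso17 log2 fold change was -0.33 (SE 0.14; adjusted p = 0.131 by edgeR), with an interval from 0.648-fold to 0.982-fold before adjustment. Libraries lay wholly below WT in 17.4% of all genes tested in this mutant, so such a separation was common.

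**Figure D1:**
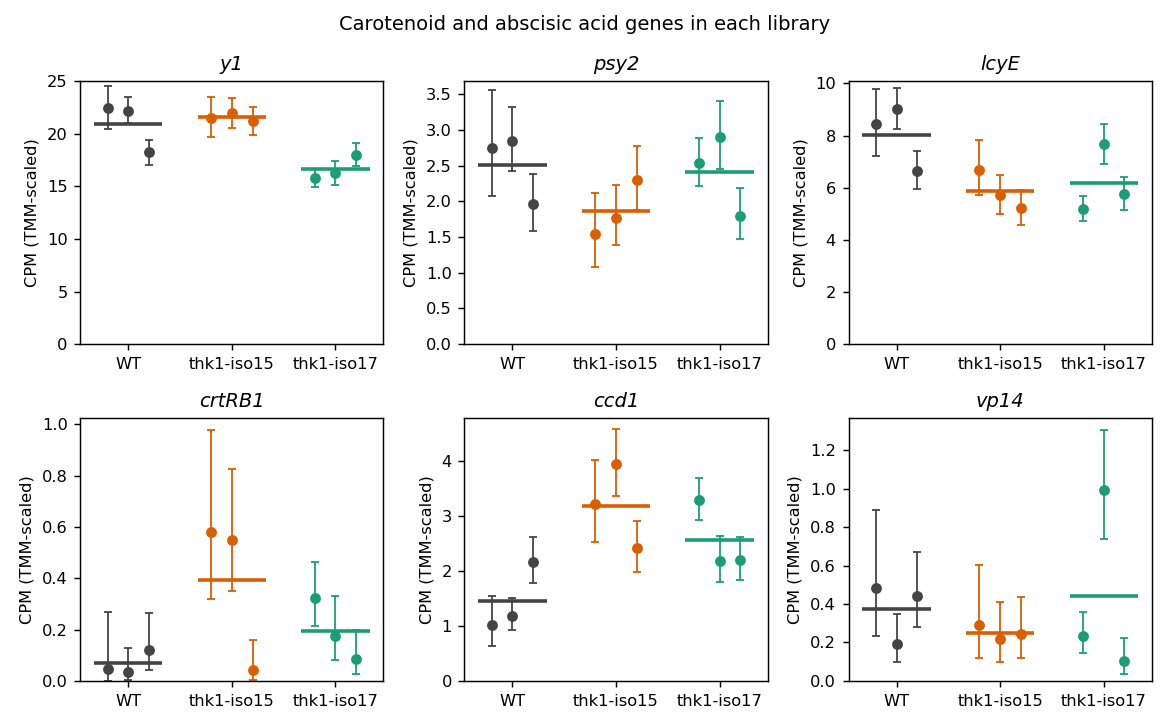
Each panel plots 1 gene in TMM-scaled CPM (linear axis from 0), with 1 point per library in order of replicate number, its 95% exact Poisson interval of the count as a vertical bar and the group mean as a horizontal line. The 3 ccd1 points of each mutant lie above all 3 WT points, and the y1 points of thk1-iso17 lie just below those of WT.

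The direction for y1 in thk1-iso17 depended on scaling. Per total gene counts, without TMM factors, y1 averaged 17.9 ± 1.31 CPM for WT, 22.2 ± 1.92 for thk1-iso15 and 19.1 ± 2.56 for thk1-iso17 (± SD over n = 3 libraries). It then differed from WT by 0.31 (log2) in thk1-iso15 and by 0.09 in thk1-iso17, where the median of all genes had itself moved by 0.26 and 0.41. Relative to that median, y1 in thk1-iso17 remained on the lower side under either scaling. The TMM factors lay between 0.785 and 0.926 in WT and between 0.946 and 1.21 in the mutants.

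The second phytoene synthase, psy2, is best known from green tissue. It stood at 2.75, 2.84 and 1.96 CPM in WT and at 1.54, 1.77 and 2.29 CPM in thk1-iso15. In thk1-iso17 it stood at 2.53, 2.90 and 1.80 CPM. The 3 groups overlapped throughout. Log2 fold changes were -0.42 for thk1-iso15 (SE 0.30; adjusted p = 0.363 by edgeR) and -0.06 for thk1-iso17 (SE 0.29; adjusted p = 0.919 by edgeR). The intervals ran from 0.474-fold to 1.18-fold and from 0.613-fold to 1.51-fold, and both included no change. Without TMM factors the thk1-iso17 value was 0.35, with all genes at a median of 0.43.

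The balance of the 2 synthases was followed as the ratio of their counts within each library, with 0.5 added to each count, which does not depend on library scaling. The y1 count was 8.10, 7.80 and 9.27 times the psy2 count in WT. In thk1-iso15 the ratio was 13.8, 12.3 and 9.19, and in thk1-iso17 it was 6.23, 5.6 and 9.96. Replicates 1 and 2 of thk1-iso15 lay above all WT libraries and replicates 1 and 2 of thk1-iso17 below them, while replicate 3 of thk1-iso15 lay within the WT range and replicate 3 of thk1-iso17 just above it. With both alleles together the log2 ratio was 0.11 above WT (3.18 ± 0.52, n = 6, against 3.06 ± 0.13, n = 3; two-sided exact permutation p = 0.714, also 0.714 adjusted over 3 ratios).

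After lycopene, lcyE and crtRB1 act on different branches. Lycopene epsilon cyclase, encoded by lcyE, opens the branch to alpha-carotene and lutein. Its level was 8.43, 9.01 and 6.64 CPM in WT. In thk1-iso15 it was 6.70, 5.70 and 5.21 CPM, and in thk1-iso17 5.18, 7.67 and 5.75 CPM. WT replicates 1 and 2 were the highest libraries, and 1 library of each mutant exceeded WT replicate 3. Means were 8.03 ± 1.24, 5.87 ± 0.760 and 6.20 ± 1.3 CPM (SD, n = 3 each). The log2 fold changes were -0.45 for thk1-iso15 (SE 0.22; adjusted p = 0.175 by edgeR) and -0.37 for thk1-iso17 (SE 0.21; adjusted p = 0.264 by edgeR). With both alleles the value was -0.41 (SE 0.18; edgeR adjusted p = 0.13, unadjusted 0.0458). Without TMM factors the thk1-iso15 value was -0.17 and the thk1-iso17 value 0.03, so the direction in thk1-iso17 also turned with scaling. The latter moved by about as much as the median of all genes and stayed below that median, at 0.43.

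The crtRB1 gene encodes a hydroxylase that converts beta-carotene towards zeaxanthin, and weak alleles of it are used to raise provitamin A in maize kernels. It was close to undetected in WT, with 1, 2 and 6 counts in the 3 libraries. The thk1-iso15 libraries held 14, 23 and 2 counts. The thk1-iso17 libraries held 29, 9 and 5 counts. Scaled to depth, thk1-iso15 replicates 1 and 2 stood at 0.583 and 0.551 CPM, while replicate 3, at 0.0441 CPM, lay within the WT range of 0.0353 to 0.121 CPM. The thk1-iso17 libraries had 0.322, 0.175 and 0.0858 CPM, of which the lowest also lay within that range. The gene reached the filter of 0.208 CPM in 3 libraries, all of them mutant, so its presence among the genes tested already depended on the mutant values. For thk1-iso15 the fitted log2 difference was 2.41 (SE 1.0; edgeR adjusted p = 0.122, unadjusted 0.034; interval from 1.16-fold to 24.2-fold), and for thk1-iso17 it was 1.46 (SE 0.98; adjusted p = 0.343 by edgeR). Without thk1-iso15 replicate 3 the gene passed in that mutant, with a log2 fold change of 2.96 (edgeR adjusted p = 0.0403, where the other settings reached up to 0.372). That pass followed removal of the thk1-iso15 library within the WT range, and the gene was tested only through mutant libraries. It is therefore no independent evidence of a rise. Without WT replicate 3 the value was 3.19 (edgeR adjusted p = 0.158). In thk1-iso17 it was 0.86 without thk1-iso17 replicate 1 and 2.24 without WT replicate 3 (edgeR adjusted p = 0.694 and 0.321). In fits on the libraries of WT and 1 mutant alone the gene did not pass the filter.

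**Figure D2:**
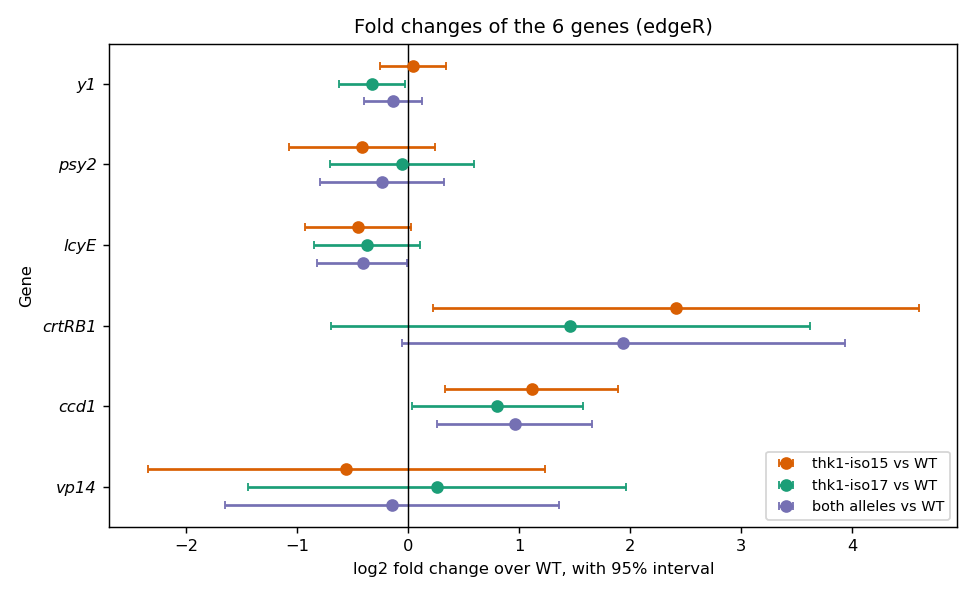
Points give the fitted log2 fold change over WT of each gene (horizontal axis) for thk1-iso15, thk1-iso17 and both alleles averaged, and bars give the unadjusted 95% interval of the edgeR fit. Intervals are narrowest for y1 and widest for crtRB1 and vp14, and those of ccd1 lie above 0 in all 3 comparisons although no adjusted p passed.

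With 0.5 added to each count, the lcyE count was 117, 205 and 50.7 times the crtRB1 count in the WT libraries, where nothing added gave 175, 256 and 54.8 times. It was 11.1, 10.1 and 94.6 times in thk1-iso15 and 15.8, 41.5 and 61.0 times in thk1-iso17. All mutant libraries but thk1-iso15 replicate 3 and thk1-iso17 replicate 3 lay below the WT libraries. The mean log2 ratio was 6.74 ± 1.01 for the 3 WT libraries and 4.78 ± 1.36 for the 6 mutant libraries (SD). The difference of -1.96 had a two-sided exact permutation p of 0.0595, or 0.161 adjusted over 3 ratios, where the smallest possible p is 0.0119. With nothing added to the counts the difference was -2.19, at the same p. On raw ratios in place of log2 the permutation p was 0.0357 (0.107 adjusted), and with a replicate block it was 0.111 (0.278 adjusted). The ratio rests on the few crtRB1 counts, 1, 2 and 6 in WT, of a gene that reached the filter in mutant libraries alone. It is therefore no evidence apart from crtRB1 itself.

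**Figure D3:**
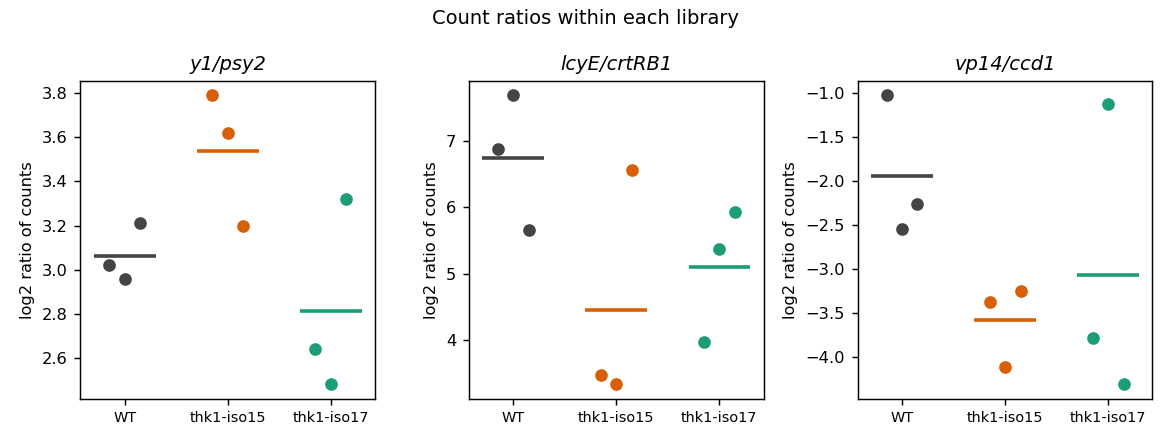
Each point is the log2 ratio of 2 gene counts in 1 library (0.5 added to each count), lines are group means, and the panels show y1 to psy2, lcyE to crtRB1 and vp14 to ccd1. In every panel the mutant libraries overlap the WT libraries, and for vp14 to ccd1 the thk1-iso17 replicate 2 point stands at -1.13, apart from the other 5 mutant points.

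Carotenoid cleavage was represented by ccd1 and vp14. The ccd1 enzyme cuts a range of carotenoids into apocarotenoids. The White cap locus of some maize lines holds additional copies of the gene, and in such lines counts of near-identical copies would be uncertain. Copy number was not examined in the B73 libraries used here. The level of ccd1 was 1.01, 1.18 and 2.16 CPM in WT. In thk1-iso15 it was 3.20, 3.93 and 2.40 CPM, and in thk1-iso17 it was 3.28, 2.18 and 2.20 CPM. Every mutant library exceeded every WT library, but the counting intervals of thk1-iso15 replicate 3 and of thk1-iso17 replicates 2 and 3 included the level of WT replicate 3. Such a separation upwards occurred in 12.4% of all genes tested. Means came to 1.45 ± 0.619 CPM for WT, 3.18 ± 0.763 for thk1-iso15 and 2.55 ± 0.630 for thk1-iso17 (± SD over n = 3 libraries). WT was thus the lowest and thk1-iso15 the highest, and the libraries of the 2 alleles overlapped.

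On the log2 scale ccd1 differed from WT by 1.11 in thk1-iso15 (SE 0.35, 2.16-fold; edgeR adjusted p = 0.0561, unadjusted 0.00935). In thk1-iso17 the difference was 0.80 (SE 0.35, 1.74-fold; edgeR adjusted p = 0.149, unadjusted 0.0435). With both alleles it was 0.96 (SE 0.32, 1.94-fold; edgeR adjusted p = 0.0527, unadjusted 0.0115), with an unadjusted 95% interval from 1.20-fold to 3.14-fold. The adjusted p therefore lay just above the threshold in thk1-iso15 and in both alleles together. It passed in 4 of 19 other settings for thk1-iso15, in 1 of 19 for thk1-iso17 and in 7 of 18 for both alleles. Over these settings the edgeR, voom or DESeq2 adjusted p ran from 0.0197 to 0.181 in thk1-iso15, from 0.0449 to 0.408 in thk1-iso17 and from 0.0184 to 0.177 for both alleles. By DESeq2 the adjusted p was 0.0197, 0.12 and 0.0184 in these 3 comparisons, and by voom it was 0.0813, 0.139 and 0.066. Without WT replicate 3, the WT library with the highest ccd1, the log2 differences were 1.52, 1.21 and 1.36 (edgeR adjusted p = 0.035, 0.0735 and 0.0316). Without WT replicate 1 they were 0.93, 0.61 and 0.77 (edgeR adjusted p = 0.161, 0.346 and 0.177). Without thk1-iso15 replicate 3 the values in thk1-iso15 and both alleles were 1.28 and 1.04 (edgeR adjusted p = 0.0452 and 0.0415), and without thk1-iso17 replicate 3 the value for both alleles was 1.0 (edgeR adjusted p = 0.0479). The direction was the same in every setting run.

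**Figure D4:**
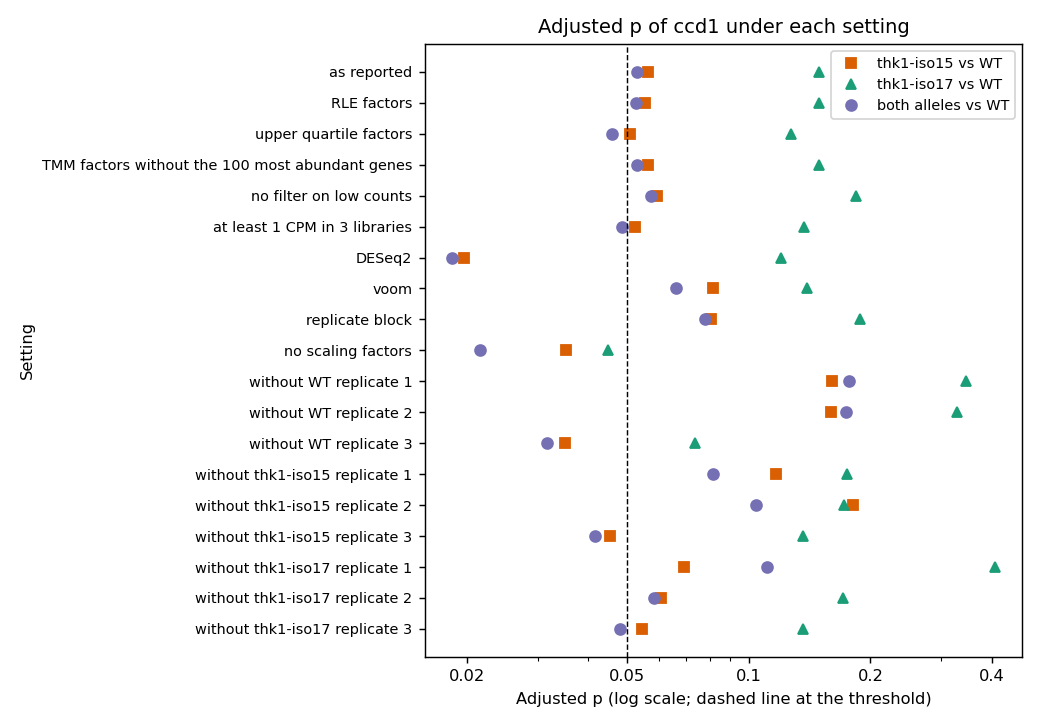
The horizontal axis (log scale) gives the adjusted p of ccd1 in each comparison with WT, with 1 line per setting of the fit or library left out (fits on only the groups compared are not drawn), and the dashed line marks 0.05. Most symbols lie to the right of the line, and those to its left come from DESeq2, from 2 other scalings, from the stricter filter and from leaving out WT replicate 3, thk1-iso15 replicate 3 or thk1-iso17 replicate 3.

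The vp14 gene, named for a viviparous mutant whose embryos germinate on the ear, encodes the 9-cis-epoxycarotenoid dioxygenase of the committed step of abscisic acid synthesis. It was counted 10, 11 and 22 times in the WT libraries, 7, 9 and 11 times in thk1-iso15 and 21, 51 and 6 times in thk1-iso17. These counts amount to 0.482, 0.194 and 0.444 CPM in WT, to 0.291, 0.216 and 0.243 CPM in thk1-iso15 and to 0.233, 0.992 and 0.103 CPM in thk1-iso17. Both the highest and the lowest library thus belonged to thk1-iso17, where replicate 2 gave 51 of the 78 counts. The log2 fold change was -0.56 for thk1-iso15 (SE 0.81; adjusted p = 0.676 by edgeR) and 0.26 for thk1-iso17 (SE 0.77; adjusted p = 0.855 by edgeR). Without thk1-iso17 replicate 2 the latter was -1.08 (edgeR adjusted p = 0.372, the lowest of all settings, which reached up to 0.973), and the value also lay below 0 without WT replicate 2 (-0.07), by voom (-0.24) and with a replicate block (-0.06). Its sign was thus not settled. The intervals, from 0.197-fold to 2.35-fold and from 0.367-fold to 3.90-fold, were wide at these counts and included no change.

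The vp14 count was 0.488, 0.170 and 0.209 of the ccd1 count in WT. In thk1-iso15 it was 0.0968, 0.0578 and 0.105 of the ccd1 count. In thk1-iso17 it was 0.0728, 0.458 and 0.0506. All 3 thk1-iso15 libraries lay below WT (-3.58 ± 0.47 against -1.95 ± 0.81 on the log2 scale, SD, n = 3 each; exact two-sided permutation p = 0.1, below which 3 against 3 libraries cannot go). For both alleles the log2 difference was -1.38 (two-sided exact permutation p = 0.107, 0.161 adjusted over 3 ratios), with 5 of the 6 mutant libraries below all WT libraries. It was -1.82 without thk1-iso17 replicate 2 (permutation p = 0.0179, 0.0536 adjusted) and -0.92 without WT replicate 1 (permutation p = 0.321). In that comparison ccd1 differed by 0.96 and vp14 by -0.15 (edgeR adjusted p = 0.0527 and 0.896). The ratio reuses the ccd1 counts and is no separate result about vp14.

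The 2 mutant alleles were also compared with each other. None of the 6 genes passed (edgeR; 0.111% of all genes did), and DESeq2 and voom also called 0, where they called 197 and 27 of all genes. By edgeR 1 of the 6 had an unadjusted p under 0.05, a share not computed over all genes, so the count is no result. That gene was y1, at 16.7 ± 1.16 CPM in thk1-iso17 and 21.6 ± 0.396 in thk1-iso15 (SD, n = 3 each), a log2 difference of -0.37 (SE 0.14; edgeR adjusted p = 0.643, unadjusted 0.0201). With TMM factors all 3 thk1-iso17 libraries lay below all 3 thk1-iso15 libraries, as in 5.59% of genes tested. Per total gene counts the alleles overlapped, with 21.83 CPM in thk1-iso17 replicate 3 and 20.04 CPM in thk1-iso15 replicate 3. The thk1-iso15 libraries were close together only with TMM factors, with a coefficient of variation of 1.84%. In that mutant 1% of tested genes had a lower one. The counting interval of thk1-iso15 replicate 3 alone, from 19.86 to 22.56 CPM, was wider than the range of the thk1-iso15 libraries. Per total gene counts these libraries averaged 22.2 ± 1.92 CPM (SD), so their closeness is no evidence for a difference between the alleles. For ccd1 the difference was -0.31 (SE 0.34; adjusted p = 0.904 by edgeR), with an interval from 0.477-fold to 1.36-fold. For lcyE it was 0.08 (SE 0.22; adjusted p = 0.971 by edgeR), from 0.761-fold to 1.47-fold. The differences of psy2, crtRB1 and vp14 were 0.36, -0.95 and 0.81 (edgeR adjusted p = 0.862, 0.881 and 0.89). The order of the alleles is therefore not resolved for these genes.

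Set among all genes tested, crtRB1 and ccd1 lay towards the upper end in size of fold change and y1 in thk1-iso15 towards the lower end. The absolute log2 fold change of crtRB1 exceeded that of 96.5% of genes in thk1-iso15 and 90.6% in thk1-iso17. For ccd1 these shares were 84.5% and 76.8%. For y1 they were 6.4% and 44.8%, and for lcyE 55.2% and 49.8%. Genes with few counts had a wider spread of fold changes, as the plot of fold change by abundance shows, and crtRB1 is one of these. It also passed the filter through mutant libraries alone, so its place among the genes tested was partly set by the filter.

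**Figure D5:**
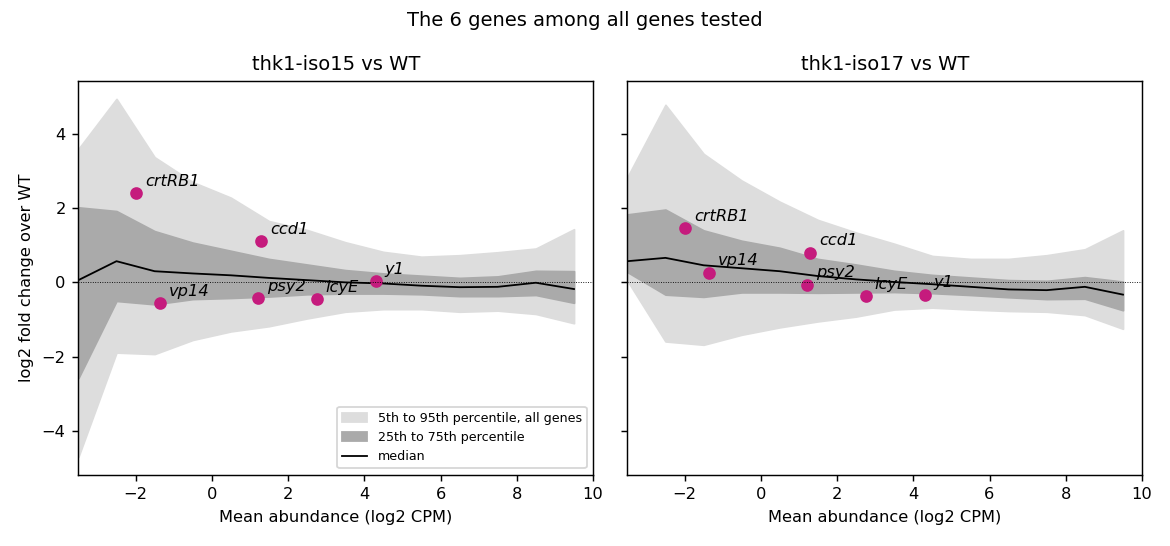
Points give the log2 fold change of the 6 genes over WT (vertical axis) by mean abundance in log2 CPM (horizontal axis), on bands from the 25th to the 75th percentile (dark) and from the 5th to the 95th percentile (light) of all genes tested, in steps of 1 log2 unit, with the median as a line. In both mutants all 6 genes lie inside the light band, with ccd1 above the dark band and lcyE below it. The crtRB1 point lies above the dark band in thk1-iso15 and within the band as drawn in thk1-iso17. Band edges run straight between step centres, and its thk1-iso17 value of 1.46 exceeds 1.40, the 75th percentile of its own step. The points of psy2 in thk1-iso15 and y1 in thk1-iso17 also lie below the dark band.

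The 6 genes were not each other's nearest neighbours in profile over the 9 libraries. Likeness was measured as the root mean square difference of log2 CPM, centred per gene. The closest members were y1 and lcyE, 0.28 log2 units apart, and 5066 tested genes were closer to y1 than lcyE was. For crtRB1 the closest member was ccd1 at 0.70, with 211 tested genes closer. For vp14 it was psy2 at 0.69, with 1499 closer. The gene most like ccd1 of all tested was Zm00001d042343, at 0.16 log2 units, which was picked for mention after its values were seen and which the files pair with no name. It averaged 7.73 ± 1.56 CPM for WT, 18.4 ± 4.09 for thk1-iso15 and 15.7 ± 2.89 for thk1-iso17 (± SD over n = 3 libraries). Having been chosen for a profile like that of ccd1, its levels are a description and no test of them is given.

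None of the 62 symbols of isoprenoid, carotenoid and abscisic acid genes that were looked for, such as those of phytoene desaturase and of other cleavage dioxygenases, was paired with a counted identifier. The rest of the pathway is not analysed here.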

How the data were processed

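The authors deposited raw counts per gene for 9 libraries, with 5 HTSeq summary lines each, which entered neither library sizes nor tests. The share of entries assigned to genes ran from 52.9% in thk1-iso15 replicate 3 to 66.5% in thk1-iso15 replicate 1. Entries not unique were also most frequent in thk1-iso15 replicate 3, at 27%, followed by 22.6% in WT replicate 2. Entries not aligned made up 8.27% in thk1-iso17 replicate 3, followed by 2.54% in WT replicate 2. In thk1-iso15, ccd1 and crtRB1 passed without thk1-iso15 replicate 3, and ccd1 also without WT replicate 3. Whether these shares bear on the calls was not tested. Per the submitters' processing notes, reads were handled with HISAT2 (2.1.0), the tools SAMtools (1.9) and StringTie (1.3.6), and HTSeq (0.11.1), on B73 RefGen_v4. The sources used here give no settings, annotation or strand handling, so reads of overlapping, antisense and near-identical genes are uncertain.

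Counts were fitted in R 4.3.3 with edgeR 4.0.16 (filterByExpr, TMM factors, glmQLFit and glmQLFTest, 1 model of 3 genotypes) and p-values were adjusted by Benjamini-Hochberg over all 23529 genes tested. SE was computed from the log2 fold change and its F statistic. Alternatives were other scalings and filters, DESeq2 1.42.0, voom in limma 3.58.1, a replicate block, only the groups compared, and each library left out. The fit was tested on simulated data, with changes larger than that of ccd1 and only in genes above 1 CPM. The simulation therefore does not show what could be detected for ccd1, crtRB1 or vp14. Intervals of counts cover counting error only. Count ratios had 0.5 added to each count. Within genotypes no replicates agreed within sampling noise (chi-square per degree of freedom from 40.7 to 162).

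The 6 genes, the ratios and the lists were chosen with earlier results of these data known. All 6 genes are named whatever their values, with names taken from the description of the gene set. A RefSeq gene table of another assembly, Zm-B73-REFERENCE-NAM-5.0, named 0 of 44146 nuclear gene models, so the lists of 62 pathway and 49 cell type marker symbols could not be measured, and no sequence is shown.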

Additional observations from a re-analysis of the deposited data

Results flagged for a closer look

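The y1 gene was flagged between the alleles for its TMM-scaled values. All 3 thk1-iso15 libraries lay above the WT mean of 20.9 CPM and all 3 thk1-iso17 libraries below it. The share of all genes with such a pattern was not computed. With TMM factors the log2 difference, thk1-iso17 minus thk1-iso15, was -0.37, and the direct edgeR test of it did not pass (adjusted p = 0.643). The lowest WT library, at 18.2 CPM with TMM factors, lay below all thk1-iso15 libraries. Per total gene counts the pattern was lost. Replicates 1 and 3 of thk1-iso17, at 18.55 and 21.83 CPM, then lay above the WT mean of 17.9 CPM. The log2 difference between the alleles was then -0.22 (edgeR adjusted p = 0.716). Single libraries far from their group could not be tested with 3 libraries per group.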

How the results depend on the processing

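The number of the 6 genes called changed from 0 to 1 with DESeq2 and without scaling factors in thk1-iso15, without scaling factors in thk1-iso17, and with upper quartile factors, the filter of 1 CPM in 3 libraries, DESeq2 and no scaling factors for both alleles, and each time the gene was ccd1. Leaving out single libraries gave 0 to 2 called genes in thk1-iso15, 0 in thk1-iso17, and 0 to 1 for both alleles. The fit without scaling factors and the ratios with nothing added were chosen after seeing the data. The fit without scaling factors shifted the median of all genes by 0.26, 0.41, 0.33 and 0.15 (log2) in thk1-iso15, thk1-iso17, both alleles and between the alleles, and turned y1, psy2 and lcyE in thk1-iso17 to 0.09, 0.35 and 0.03 and y1, psy2 and vp14 for both alleles to 0.20, 0.10 and 0.12. Its calls over all genes were 3769 higher and 560 lower in thk1-iso15 (2038 and 1604 with TMM), 5717 and 336 in thk1-iso17 (6053 in all; 1873 and 1479 with TMM), and 6002 and 669 for both alleles (2586 and 2357 with TMM).

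For vp14 in thk1-iso17 the sign turned by voom (-0.24) and with the replicate block (-0.06). Over the libraries left out, uncalled log2 values crossed 0 for y1 in thk1-iso15 (-0.05 to 0.10), psy2 (-0.21 to 0.11) and vp14 (-1.08 to 0.72) in thk1-iso17, vp14 for both alleles (-0.82 to 0.08), lcyE (-0.11 to 0.20) and vp14 (-0.53 to 1.28) between the alleles, and the y1 to psy2 ratio (-0.012 to 0.249). The ratios of lcyE to crtRB1 ranged from -2.49 to -1.49 and of vp14 to ccd1 from -1.82 to -0.92. Calls over all genes ranged from 1440 to 4386 in thk1-iso15, 1176 to 3946 in thk1-iso17, 2464 to 5876 for both alleles and 21 to 72 between the alleles, where they were 75 without a filter, 197 by DESeq2 and 17 with these groups alone, against 26. The causes were not tested.

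Replicate numbers did not meet the criterion for pairing, that every same-numbered pair correlates: 3 of 9 same-numbered pairs had a correlation of deviations over 0.1 (-0.113 to 0.24). Of the 9 libraries 6, those numbered 2 and 3, were closest to one of their own number. This was not tested against chance, and the correlations were small, so partial pairing cannot be judged from it. With the replicate block 0 of the 6 genes were called in any comparison. The count for crtRB1 and vp14 limits what can be detected, and both fell below the filter of 1 CPM in 3 libraries.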
